A study of Mus musculus with 1 sample.

Results

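Gm42418 and Gm26917 are neighbouring genes of the mouse ribosomal-RNA-like locus on chromosome 17, and their 3′ tails were examined in epiblast-like cells (EpiLCs), which had been derived for 24 h from wild-type embryonic stem cells of the ICR strain. The 2 genes were selected on their measured short tails in these same data, among 12842 genes with at least 1 transcript, so their tail lengths are given as a description and were not tested. Together they gave 3201 of the 803537 transcripts that had a gene, with 3100 from Gm42418 and 101 from Gm26917. The cells were cultured in N2B27 with activin A, basic FGF and serum replacement on a Matrigel coating. Tails were read by PAIso-seq, in which full-length cDNA that includes the RNA 3′ end is read on the PacBio platform in repeated passes, and reads with at least 7 passes were used. The series contributed 1 group here, with 2 replicates in 1 sample that were told apart by barcode and numbered by it. Knockout cells of the study were not analysed here.

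Cytoplasmic ribosomal RNA is transcribed by RNA polymerase I as a long precursor, and the 18S, 5.8S and 28S RNAs are cut out of it with removal of external and internal spacers. Unlike mRNAs, whose long tails are made by the canonical poly(A) polymerase and bound by poly(A)-binding proteins, ribosomal RNAs carry no long poly(A) tail. Short oligo(A) stretches can be added to precursors and fragments in the nucleus by the TRAMP-type polymerases Tent4a and Tent4b, and the RNA exosome then trims or degrades such RNA from the 3′ end. The 12S and 16S mitochondrial ribosomal RNAs are oligoadenylated inside mitochondria by a separate polymerase.

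GENCODE (vM21, GRCm38 build) lists both genes as lincRNA on the plus strand. Gm26917 (ENSMUSG00000097971) spans chr17:39843013-39846341, which is 3329 bases, and Gm42418 (ENSMUSG00000098178) spans chr17:39846958-39848788, which is 1831 bases. RefSeq places an 18S-related sequence, Rn18s-rs5, on the same strand at chr17:39846354-39848202. It starts 12 bases past the end of Gm26917, and it covers 1245 bases or 68.0% of Gm42418, which runs 586 bases beyond its end. On the minus strand, exons of CT010467.1, which GENCODE types as rRNA, and of AY036118 lie opposite 1822 bases or 99.5% of Gm42418 and opposite none of Gm26917. The strand setting used in the counting is not given in the sources used here, so transcripts of Gm42418 and of its antisense partners may not be told apart. CT010467.1 itself held 4 transcripts, all in replicate 1 and all with a tail of 1 nt, and AY036118 held none. Because near-identical copies of ribosomal sequence occur elsewhere in the genome, the division of reads among copies is uncertain.

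The letters around the annotated ends are shown so that the tails can be set beside them. All are from the RefSeq copy of GRCm38, plus strand. In the Rn18s-rs5 line, chr17:39848173-39848212, capitals mark the 10 bases that follow its annotated end. In the last line, chr17:39848819-39848908, capitals mark runs of at least 8 A.
Gm26917 annotated 3′ end: ctggtcctgtcccacccccgacggcttcgc
Rn18s-rs5 3′ end: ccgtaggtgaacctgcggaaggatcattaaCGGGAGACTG
Gm42418 annotated 3′ end: ggtcgccctgccgcccccagggtcgggggg
downstream of Gm42418: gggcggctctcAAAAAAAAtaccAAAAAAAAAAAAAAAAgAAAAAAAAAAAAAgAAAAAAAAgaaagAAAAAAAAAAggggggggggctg
Gm26917 and Gm42418 end in GC-rich sequence with 2 and 1 A in the final 30 bases. A was 8.26% of Gm26917 and 17.7% of Gm42418, and the longest A run was 4 bases in the former and 6 in the latter. The 300 bases past Gm42418 were 41.0% A and held 6 runs of at least 8 A. The first began 42 bases past the annotated end, and the longest had 16 A, at chr17:39848842-39848857. Several of these runs are separated by a single G.

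**Figure D1:**
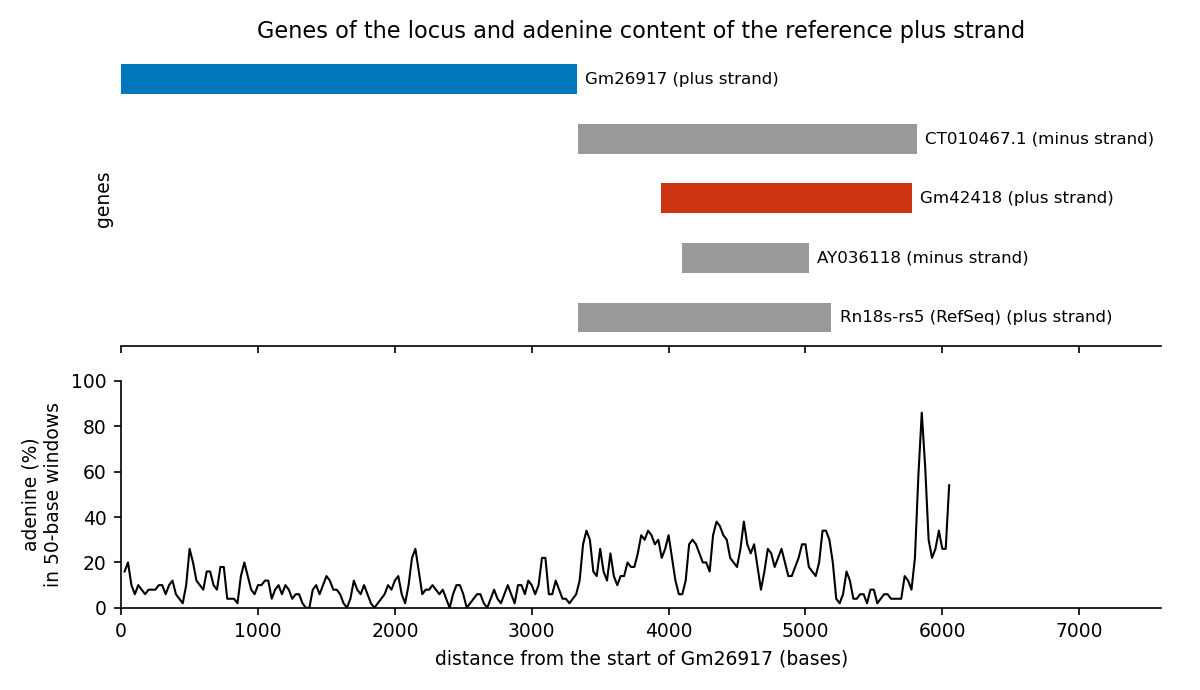
Gene spans (upper panel) and percent adenine of the plus strand in 50-base windows (lower panel) against distance in bases from the start of Gm26917. Adenine peaked at 86.0% in the window centred 5850 bases from that start, just past the end of Gm42418.

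The tails that carried the findings are shown next, in lower case with every non-A base in capitals, in the 5′ to 3′ direction and with T standing for U.
Gm42418, most frequent: a
Gm42418, second: aa
Gm42418, next: aaa
Gm42418, most frequent with a non-A base: aaTa
Gm42418, second with a non-A base: aTa
Gm42418, T pair before the last A: aaTTa
Gm26917, most frequent: aaaa
Gm26917, G within A: aaaGaaaaaa
Gm26917, in replicate 1 only: aaCaaaaTTaaaaaaaGaaaaaa
Gm26917, longest match to the locus: aaaaaaaaaaaaaaaGaa
Gm42418, longest match to the locus: aaaaaGaaaaaaaaaaaa
The single A was the tail of 1967 Gm42418 transcripts, 872 in replicate 1 and 1095 in replicate 2. Among Gm26917 transcripts the leading sequence was 4 A, with 19 transcripts, 9 in replicate 1 and 10 in replicate 2. Its 23-nt tail with 4 non-A bases was read on 2 transcripts, both in replicate 1.

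In depth, the replicates held 354259 and 593361 reads with at least 7 passes, of which 246316 and 455660 were assigned to nuclear genes. Against those totals, 3 reads are a share of 0.00122% and 0.000658%. The formative markers Dnmt3a, Dnmt3b, Otx2, Pou3f1 and Fgf5 were all detected, with 1052 transcripts in all, and Pou5f1 had 303. Naïve markers were uneven, with 501 transcripts of Zfp42, 40 of Esrrb, 4 of Tbx3, 1 of Klf4 and none of Prdm14. Fibroblast and endoderm markers gave 2 and 1 transcripts. Percent intervals below are 95% Wilson intervals. They cover counting error only, since the reads carry no molecular identifiers.

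Gm42418 was among the most frequent nuclear genes of the library. Its share of nuclear transcripts was 0.548% (0.520 to 0.578) for replicate 1 and 0.384% (0.366 to 0.402) for replicate 2, which gives 0.466% ± 0.116 (SD, n = 2). The intervals of the replicates did not overlap, and replicate 1 was the higher. By transcript number it ranked 4th of 11031 nuclear genes in replicate 1, 10th of 11704 in replicate 2 and 7th of 12816 with both pooled. RNA of many cells was pooled, so the number of cells that held this RNA and the amount per cell cannot be told apart. These shares describe reads with a tail and not the content of ribosomal RNA, because repetitive reads and reads without a tail had been removed.

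Gm26917 was much rarer. It had 39 transcripts, 0.0158% of the nuclear total, in replicate 1 (0.0116 to 0.0216), and 62 transcripts or 0.0136% in replicate 2 (0.0106 to 0.0174). The mean was 0.0147% ± 0.00157 (SD, n = 2), the intervals of the replicates overlapped, and the gene ranked 1491st by transcript number.

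The tails of Gm42418 were mostly a single A. A tail of 1 nt was found on 64.5% of its transcripts in replicate 1 (62.0 to 67.1) and on 62.6% in replicate 2 (60.3 to 64.8), and these intervals overlapped. Tails of 2 nt made up 27.6% in replicate 1 (25.3 to 30.1) and 20.5% in replicate 2 (18.6 to 22.4). Tails of 3 to 5 nt made up 6.66% in replicate 1 (5.45 to 8.12) and 14.5% in replicate 2 (12.9 to 16.3). The replicates thus shared the 1-nt fraction and differed, beyond counting error, in how the next longer tails were divided between 2 nt and 3 to 5 nt. In all, tails of 1 to 5 nt, here named short, were 98.8% in replicate 1 and 97.6% in replicate 2, with a mean of 98.2% ± 0.861 (SD, n = 2). Replicates 1 and 2 had geometric mean tails of 1.36 and 1.47 nt, and the median was 1 nt. These shares are over reads that kept a tail. Tails had been extended into adjoining genomic A, and the part of genomic A in the tails of 1 to 5 nt was not tested. Candidate tails with few A among their first bases had been filtered out, and the effect of that filter on these lengths was not tested.

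Gm26917 had a broader spectrum. Of its 101 tails, 13 had 1 nt, 4 had 2 nt, 9 had 3 nt, 20 had 4 nt and 11 had 5 nt. The 4-nt class, 19.8% (13.2 to 28.6), was therefore the most frequent single length, with 10 transcripts in each replicate. Short tails made up 61.5% in replicate 1 (45.9 to 75.1) and 53.2% in replicate 2 (41.0 to 65.1), and the mean was 57.4% ± 5.88 (SD, n = 2). A further 26 tails had 6 to 15 nt, 12 had 16 to 30 nt and 6 had over 30 nt. Replicates 1 and 2 had geometric mean tails of 5.11 and 6.31 nt and medians of 4 and 5 nt. The replicates overlapped in every one of these classes. For this gene too, the effect of the filter on A on the spectrum was not tested.

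**Figure D2:**
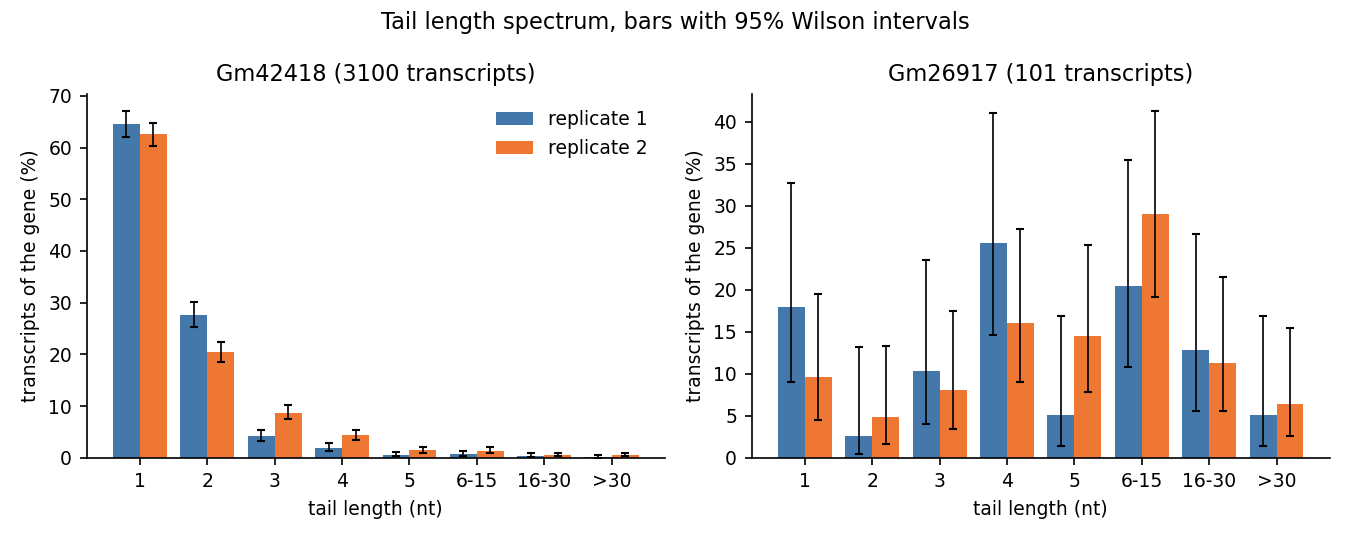
Share of the transcripts of Gm42418 (left) and Gm26917 (right) with each tail length in nt, by replicate, with 95% Wilson intervals and a separate vertical scale for each gene. Gm42418 fell steeply from 1 nt, while Gm26917 had its most frequent single length at 4 nt and 25.7% of its tails at 6 to 15 nt.

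Although the 2 genes lie 616 bases apart, their tails differed. The share of short tails for Gm26917 minus that for Gm42418 was −37.3 percentage points in replicate 1 and −44.4 in replicate 2, with a mean of −40.8 ± 5.02 (SD, n = 2). The cumulative distributions were furthest apart at 2 nt, where the gap was 0.702 of the transcripts. Between replicates, the largest gap was 0.0908 for Gm42418 and 0.177 for Gm26917, so the genes were further apart than the replicates of either. Both were chosen for short tails, and Gm26917 contributed 101 transcripts only.

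The remaining nuclear transcripts had long tails. Over 698775 transcripts of all other nuclear genes the median was 92 nt, 89.8% had over 30 nt, and 1.89% were short. The share of short tails in those genes was 0.975% in replicate 1 and 2.38% in replicate 2, so replicate 2 held more short tails outside the locus while Gm42418 itself had slightly fewer there.

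**Figure D3:**
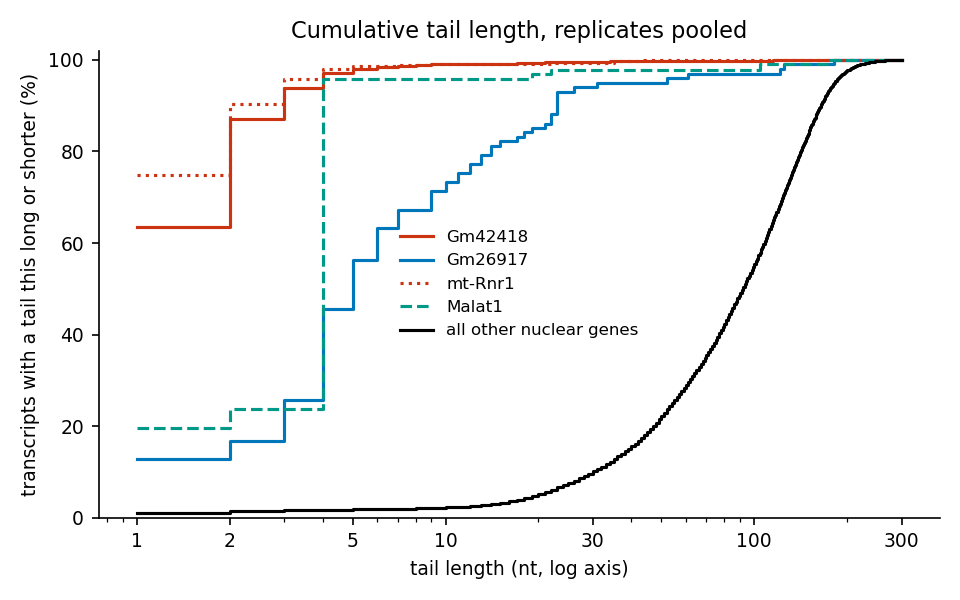
Percent of transcripts with a tail of the given length or shorter, replicates pooled, on a log axis in nt. Gm42418 lay close to mt-Rnr1, Malat1 rose almost entirely by 4 nt, Gm26917 rose gradually to about 30 nt, and all other nuclear genes had a median of 92 nt.

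Gm42418 supplied a large part of all very short nuclear tails. It held 1335 of 3746 short tails in replicate 1, or 35.6% (34.1 to 37.2), and 1707 of 12533 in replicate 2, or 13.6% (13.0 to 14.2). For tails of exactly 1 nt its part was 41.7% in replicate 1 and 14.6% in replicate 2. It ranked first among nuclear genes by number of short tails in both replicates, whereas Gm26917, with 57 short tails, ranked 3rd in replicate 1, 18th in replicate 2 and 6th with both pooled. Leaving out Gm42418 lowered the share of short tails among nuclear transcripts to 0.984% in replicate 1 and 2.39% in replicate 2.

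Among the 1775 nuclear genes that reached 30 transcripts in both replicates, only Gm42418, Malat1 and Gm26917 had short tails on over 50% of their transcripts. The median gene had 0.629% and the 95th percentile was 6.11%. Ordered by geometric mean tail, the 3 genes were followed by zinc finger genes Zfp980 at 22.7 nt with 21.3% short tails and Zfp987 at 23.5 nt with 20.2%, and by Dido1 at 27.2 nt with 17.8%. Malat1, a nuclear lincRNA whose mature 3′ end is not made by canonical polyadenylation, had 97 transcripts with a geometric mean of 3.29 nt. By that measure it stood between Gm42418 and Gm26917.

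The genes with the most similar tail spectra were named by the smallest gap between cumulative distributions over the 1783 genes, mitochondrial ones included, that reached 30 transcripts in both replicates. Gm42418 was nearest to mt-Rnr1, the 12S mitochondrial ribosomal RNA, with a gap of 0.113. That RNA had 21581 transcripts, of which 80.2% in replicate 1 and 70.6% in replicate 2 ended in 1 nt. The next genes were far off, namely mt-Rnr2, the 16S mitochondrial ribosomal RNA, at 0.571, Malat1 at 0.701, Gm26917 at 0.702 and the ubiquitin ligase gene Huwe1 at 0.745. Gm26917 was nearest to mt-Rnr2, with a gap of 0.147 and 49.7% short tails over 5776 transcripts. It was followed by Malat1 at 0.503, Zfp987 at 0.518, the iron-response gene Ireb2 at 0.571 and Dido1 at 0.579. The nearest gene of each member was thus a mitochondrial ribosomal RNA. The gap was somewhat above that between the replicates of Gm42418 and below that between the replicates of Gm26917.

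When 10 transcripts per replicate sufficed, which admitted 4297 genes, other names came forward. Lars2, the gene of mitochondrial leucyl-tRNA synthetase, was nearest to Gm42418 with a gap of 0.0627. Its 142 transcripts had 94.4% short tails, and they were uneven, with 12 in replicate 1 and 130 in replicate 2, where the geometric means were 3.05 and 1.40 nt. For Gm26917, the small nucleolar RNA Snora73b came second to mt-Rnr2 with a gap of 0.184. It had 69 transcripts and geometric means of 4.38 and 5.28 nt in the replicates. It was followed by mt-Nd6 at 0.254 and by the small neuronal RNA Bc1 at 0.313.

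A list of noncoding RNAs that are structured or kept in the nucleus gave a wide range. Of 18 such genes listed, 16 were in the annotation, 9 were detected and 7 had at least 10 transcripts. Over those 7 the median geometric mean tail was 3.95 nt and the range was 1.28 to 130.3 nt, beside a median of 76.4 nt over 7146 nuclear genes with as many transcripts. The 7 include the mitochondrial mt-Rnr1 and mt-Rnr2 and also Malat1, which were already named above for their similar tails, so the low median rests partly on them. Rn7sk, the 7SK RNA that holds back transcription elongation, had 14 short tails among 16 transcripts, or 87.5%. Kcnq1ot1, an imprinted nuclear RNA, had 10 among 12, or 83.3%. The spliced host genes Gas5 and Snhg1 stood at the other end, with geometric means of 91.0 and 130.3 nt. Short tails were therefore found on several noncoding RNAs of this list and were not shared by all.

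The mRNAs for the enzymes that act on nuclear oligo(A) were themselves present with ordinary tails. Of 20 genes listed for nuclear adenylation and 3′ decay, 19 were detected, Exosc6 being the exception, and their geometric mean tails ran from 39.1 nt for Dis3, an exosome ribonuclease, to 102.2 nt for C1d, an exosome cofactor. Tent4a had 32 transcripts at 86.2 nt, and Tent4b had 26 at 74.9 nt. Mtrex, the exosome helicase, had 272 at 66.1 nt, and the nuclear exosome ribonuclease Exosc10 had 98 at 77.4 nt. The list's median, 72.4 nt, was near that of all nuclear genes. These values show the presence of the mRNAs and say nothing of enzyme activity.

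Most tails of Gm42418 were pure A, and over all lengths mixed tails were more frequent on Gm26917. A non-A base was found in 4.37% of its tails in replicate 1 (3.40 to 5.59) and in 5.49% in replicate 2 (4.52 to 6.66). For Gm26917 the share was 25.6% in replicate 1 (14.6 to 41.1) and 33.9% in replicate 2 (23.3 to 46.3). The intervals of the replicates overlapped for both genes, and those of the 2 genes did not overlap in either replicate. All other nuclear genes had 12.2% and 9.56%. In tails of at least 3 nt with the outermost base at both ends ignored, the pooled shares were 29.4% for Gm42418 and 35.7% for Gm26917, so most of the contrast went with the 1-nt and 2-nt tails.

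Tails of like length were then set side by side, because longer tails have more positions. Among tails of 3 to 5 nt, 32.6% of those of Gm42418 held a non-A base (27.8 to 37.7), with 45.6% in replicate 1 and 28.0% in replicate 2. The share was 12.5% for Gm26917 (5.46 to 26.1) and 7.06% for all other nuclear genes, which had 9.14% and 6.46% in the replicates. Among tails of 6 to 15 nt the shares were 42.4%, 53.8% and 30.3% in the same order. Among tails of 16 to 30 nt they were 64.3% of 14 tails, 66.7% of 12 tails and 18.6% of 47906 tails. Tails of over 5 nt as a whole had a non-A base in 44.8% for Gm42418 (32.7 to 57.5) and in 59.1% for Gm26917 (44.4 to 72.3), against 10.6% for all other nuclear genes, most of whose tails were longer. Set against all other nuclear genes, the rRNA-like genes had the higher share in each of these classes. The interval included the other genes' share for Gm26917 at 3 to 5 nt and for Gm42418 at 6 to 15 nt (27.2 to 59.2). In tails of 1 nt and 2 nt the share was not higher. It was 0% and 2.33% (1.46 to 3.69) for Gm42418, 0% in both classes for Gm26917, and 1.27% and 2.77% for all other nuclear genes. In some length classes, frequent mixed tails were not particular to these genes. For mt-Rnr1 the share was 48.2% at over 5 nt (42.7 to 53.8) and 35.1% at 6 to 15 nt. The former included 150 tails of over 30 nt, of which 66.0% were mixed. Reads assigned to no gene had 42.7% at 6 to 15 nt. At 3 to 5 nt, mt-Rnr1 had 6.66% and reads assigned to no gene 8.50%. At 16 to 30 nt, mt-Rnr1 had 14.8% of 27 tails and reads assigned to no gene 22.5%.

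The mixed tails of 2 to 5 nt on Gm42418 had a recurrent form, with T just before a last A. The tail aaTa was found 40 times, 5 times in replicate 1 and 35 times in replicate 2, and made up 39.2% of its 4-nt tails. In all other nuclear genes it was found 8 times, or 0.725% of 1103 tails of 4 nt. It was on 0 of 439 such tails of mt-Rnr1, of which 3 tails would be 0.683%. The tail aTa was found 12 times in replicate 1 and 8 times in replicate 2, and aaTTa 2 and 6 times. The form aTa was also found on mt-Rnr1, 19 times in replicate 1 and 12 times in replicate 2, or 2.60% of its 3-nt tails against 9.57% of those of Gm42418. Taken as a class, 7.63% of the 1075 tails of 2 to 5 nt on Gm42418 ended in T and A (6.19 to 9.37). Replicate 1 had 5.62% and replicate 2 had 9.15%. In the same length class it was 0.540% of 5560 tails of all other nuclear genes (0.378 to 0.769), 77 of 5135 tails of mt-Rnr1 (1.20 to 1.87%), and 1 of 44 tails of Gm26917. A tail of aaC was found 9 times in replicate 1 and 1 time in replicate 2, so this form was nearly limited to 1 replicate. The letters of aaC, and of Ta with 12 transcripts, also occur in the Rn18s-rs5 line printed above, while those of aaTa, aTa and aaTTa do not. Tails of 2 to 5 nt were not searched in the reference, so whether their T and C bases are genomic was not tested.

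The kind of non-A base changed with tail length. In tails of 2 to 5 nt of Gm42418, T made up 76.8% of 151 non-A bases (69.5 to 82.8), with 69.0% in replicate 1 and 81.7% in replicate 2, and G made up 7.95%. In its tails of over 5 nt, G made up 61.5% of 52 non-A bases (48.0 to 73.5), with 10 of 20 bases in replicate 1 and 22 of 32 in replicate 2. Gm26917 had nearly the same value in its tails of over 5 nt, where G was 63.9% of 61 non-A bases (51.4 to 74.8), with 8 of 16 in replicate 1 and 31 of 45 in replicate 2. All other nuclear genes had 18.8% G in that class and 56.4% T. Most of their tails were far longer, and within 6 to 30 nt the contrast was wider, with 5.77% G for them, 61.7% for Gm42418 and 63.0% for Gm26917. The intervals on base shares take each base as independent and are too narrow where bases share a tail. At over 5 nt, the 32 G of Gm42418 lay in 17 tails and the 39 G of Gm26917 in 23. On Gm26917, 1 tail of 125 nt held 10 non-A bases.

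Read over genes, the G share also stood high. Among 1190 nuclear genes with at least 20 non-A bases in tails of over 5 nt, the median G share was 17.6% and the 95th percentile 35.7%. Gm26917 ranked 5th and Gm42418 6th. At least 1 G was found in 52.3% of the 44 tails of over 5 nt on Gm26917 (37.9 to 66.2) and in 29.3% of the 58 on Gm42418 (19.2 to 42.0), against 2.51% for all other nuclear genes. For mt-Rnr1, the gene nearest to Gm42418 in tail length, 32.2% of the 311 tails of over 5 nt held a G (27.2 to 37.5). This share was like that of Gm42418 over the whole class, but not at 6 to 30 nt. There, 4.35% of the 161 tails of mt-Rnr1 held a G (2.12 to 8.70), against 34.0% of the 47 of Gm42418 (22.2 to 48.3). G made up 28.0% of the 2130 non-A bases of the mt-Rnr1 tails of over 5 nt, and 8.57% of those at 6 to 30 nt.

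**Figure D4:**
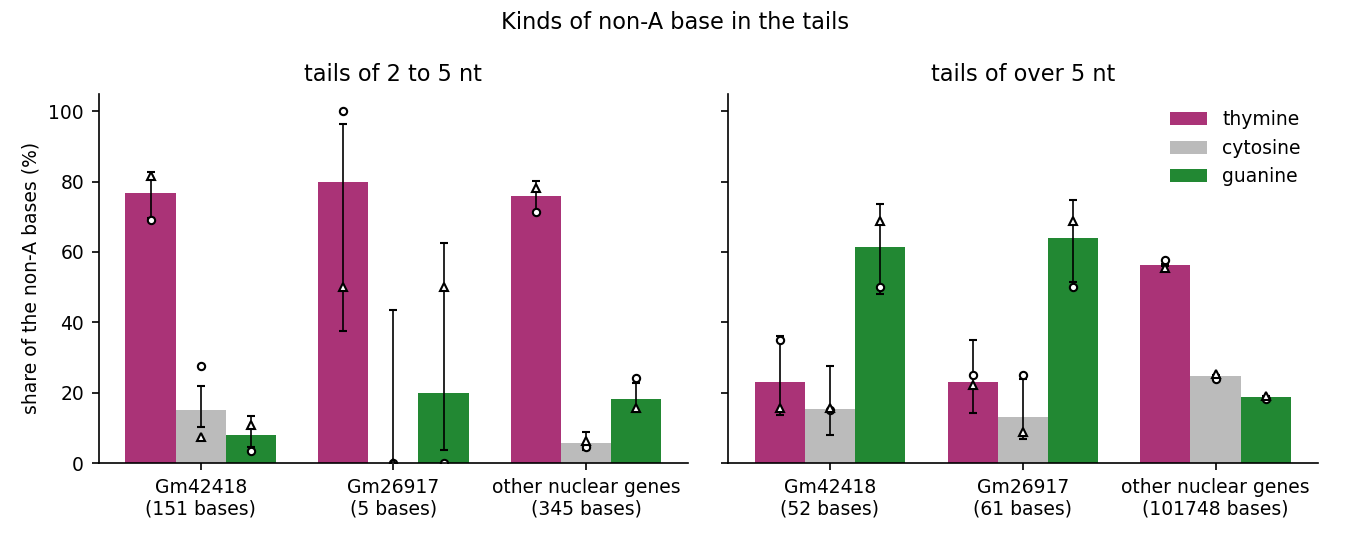
Thymine, cytosine and guanine as percent of the non-A bases in tails of 2 to 5 nt (left) and of over 5 nt (right), with 95% Wilson intervals on the pooled bars, circles for replicate 1 and triangles for replicate 2. The intervals take each base as independent, although some bases share a tail. Thymine led in the shorter class, on 5 bases only for Gm26917, and guanine led in the longer class for both rRNA-like genes at 61.5% and 63.9%, against 18.8% in all other nuclear genes.

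Some of these G-holding tails matched the reference downstream of Gm42418 letter for letter. Tails of 10 to 30 nt with a non-A base were looked for on the plus strand in the 300 bases past the annotated end. There were 5 matches among 17 such tails of Gm26917, or 29.4% (13.3 to 53.1), and 2 among 11 of Gm42418, or 18.2% (5.14 to 47.7). All other nuclear genes had 110 matches among 11313, or 0.972% (0.807 to 1.17). When only tails with a G were counted, the matches were 5 of 15, 2 of 9 and 98 of 957 in the same order. The last of these is 10.2% (8.48 to 12.3), which lies within the interval of Gm42418 (6.32 to 54.7) and below that of Gm26917 (15.2 to 58.3). Most matches were thus A stretches broken by G, a form also present in tails of other genes. Tails of 6 to 9 nt with a non-A base were looked for as well. Matches were 2 of 12 for Gm42418 (4.70 to 44.8%) and 2 of 5 for Gm26917 (11.8 to 76.9%). All other nuclear genes had 221 of 627, or 35.2%, which lies within both intervals. With the locus itself searched as well, matches at this length were 7 of 12 for Gm42418, 4 of 5 for Gm26917 and 356 of 627 for all other nuclear genes. The longest matching tails had 18 nt, namely aaaaaGaaaaaaaaaaaa on Gm42418 in replicate 2, which begins 65 bases past the annotated end, and aaaaaaaaaaaaaaaGaa on Gm26917 in replicate 2, which begins 55 bases past it. The deposited values do not hold read positions, so where these transcripts ended was not determined. The authors extended tails into adjoining genomic A tracts, and the part of genomic A in these tails was not tested.

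A few tails of each gene were of mRNA length. On Gm42418, 11 tails had over 30 nt, of which replicate 1 held those of 177 and 211 nt and replicate 2 held those of 34, 38, 44, 57, 87, 90, 115, 143 and 192 nt. Of these, 8 were pure A. On Gm26917 there were 6, with 31 and 121 nt in replicate 1 and 52, 61, 125 and 181 nt in replicate 2, and 2 were pure A. Long tails were thus rare on both genes, at 0.355% of the transcripts of Gm42418 and 5.94% of those of Gm26917. None of the 11 from Gm42418 came from a sequencing well with more than 1 transcript, while the pure-A tail of 121 nt on Gm26917 came from a well with 2.

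The share of short tails on Gm42418 was alike in reads of few and of many passes. It was between 97.5% and 98.7% in each of 5 classes from 7 passes upward, and the share in all other nuclear genes was between 1.61% and 2.01%. For Gm26917 it was 36.8% among 19 transcripts with 15 to 29 passes and between 57.1% and 62.5% in the other classes, and 5 of its 6 tails of over 30 nt were in that class. The intervals of all 5 classes of Gm26917 overlapped.

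Transcripts of Gm42418 shared a sequencing well with another transcript slightly more often than others, at 9.55% (8.56 to 10.6) against 6.77% for all other nuclear genes. The replicates had 8.36% and 10.5%, and mt-Rnr1 had 10.8%. Of 286 partners in wells of 2, 195 were nuclear, 41 mitochondrial and 50 without a gene, and their median tail was 80.0 nt. Over the wells with 1 transcript alone the share of short tails on Gm42418 was 98.1%, as with all wells.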

How the data were processed

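The PAIso-seq tail table of 1 wild-type sample with 2 barcodes was analysed. Per the methods, the authors made CCS reads, assigned them to barcodes, removed adapters and aligned them to mm10 with minimap2 (2.17). They removed repetitive reads and took the 3′ soft-clipped bases extended into adjoining A tracts as the tail. Candidate tails with few A among their first bases were filtered out. They dropped reads without a tail and assigned genes with featureCounts (2.0.1). How the filter on A treated very short tails is not stated. Its effect on the tail length spectra and on the non-A shares was not tested. The deposited table gives per read the passes, tail base counts and tail sequence, not normalized. The base counts matched the sequence in all 1013675 reads.

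Tail length was the sum of A, T, C and G, for reads with at least 7 passes. Of 12962 gene identifiers, 12955 were found in GENCODE vM21. Mitochondrial genes were kept apart from nuclear genes. Computations used Python 3.11.15, pandas 2.3.3 and scipy 1.17.1, and were tested on simulated data. With 1 group and genes chosen by tail length, no test was run. The genes named beside the members were the 5 with the smallest largest gap between cumulative tail distributions (at least 30 transcripts in each replicate). Those in the other lists with at least 10 transcripts were also used. Lars2, Snora73b and Bc1 came from an alternative minimum of 10. Members and lists were chosen with earlier results of these data known. The split by length class of non-A bases and the search of tails in the reference were chosen after seeing the data. Replicates may be technical.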

Additional observations from a re-analysis of the deposited data

Results flagged for a closer look

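Reads with fewer than 7 passes entered no comparison. Of 66055 such reads, 116 were assigned to Gm42418, or 0.176%, above the 0.00454% that 3 reads can show. Among the 116, 115 had tails of 1 to 5 nt, or 99.1% (95.3 to 99.8), and the longest had 18 nt. Gm26917 had 2 such reads, both with short tails.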

How the results depend on the processing

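Over 14 alternatives, 63 of 75 values moved by less than the SD of the replicates and 12 moved by more. Values with 1 replicate left out could hardly move by more, because the 2 replicates themselves set that SD. Counting 1 to 3 nt as short gave 93.8% for Gm42418, 25.7% for Gm26917 and a difference of −68.0 points. Counting 1 to 10 nt gave 73.3% for Gm26917 and a difference of −25.7. The arithmetic mean tail was 2.06 nt for Gm42418 and 12.4 nt for Gm26917, and the median for Gm42418 was 1.00 nt. Tails of at least 6 nt alone had close geometric means, 15.8 nt over 58 tails of Gm42418 and 15.2 nt over 44 tails of Gm26917. With the outermost base at both ends ignored, in tails of at least 3 nt, 29.4% of Gm42418 tails and 35.7% of Gm26917 tails held a non-A base, by construction over fewer tails. With all genes as the denominator, Gm26917 made up 0.0126%. Of the 5 genes most like each member, 1 was shared at a minimum of 10 transcripts and 2 when only tails of at least 6 nt were compared, for Gm42418 and for Gm26917. With 1 replicate left out, short tails ranged from 97.6% to 98.8% for Gm42418 and from 53.2% to 61.5% for Gm26917, the difference from −44.4 to −37.3, geometric means from 1.36 to 1.47 and from 5.11 to 6.31 nt, non-A shares from 4.37% to 5.49% and from 25.6% to 33.9%, and shares of nuclear transcripts from 0.384% to 0.548% and from 0.0136% to 0.0158%. No paired analysis was possible because only 1 group was measured. The 101 transcripts of Gm26917 limit its values.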
